A study of Mus musculus with 9 samples.

Results

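The genes described here carry out antigen presentation by major histocompatibility complex (MHC) molecules: B2m, Tap1, Tap2, Tapbp, Psmb8, Psmb9 and Psmb10 of the class I route, and Cd74, H2-Aa and H2-Ab1 of the class II route. They were chosen by name, and every probe set that the platform annotation assigns to exactly 1 of these symbols was taken. This gave 21 probe sets for the 10 genes, out of 45037 probe sets without controls and 18193 genes. B2m, Tapbp and Psmb8 have 2 probe sets each, Tap1 and H2-Aa have 4 each, H2-Ab1 has 3, and the other four genes have 1 each.

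RNA was measured on 9 Affymetrix mouse arrays, 3 for each of 3 populations sorted from the marrow of normal C57BL/6 mice of 4 to 10 weeks and either sex. Both myeloblast populations carried c-kit (CD117, the receptor for stem cell factor) and the granulocyte antigen Gr1, and lacked B220, TER119, CD3, CD4, CD8 and the IL7 receptor alpha chain. They were parted by the adhesion receptor Mac1 into MAC1- myeloblasts, which the description calls low or negative for Mac1, and MAC1+ myeloblasts. Neutrophils had both Gr1 and Mac1 but no c-kit, and for them no antigen of another lineage is named in the sort. The labels do not say whether replicates came from separate animals or from pools, so every p-value reflects the spread among these arrays alone, part or all of which may be technical.

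Class I molecules show peptides from inside the cell to CD8 T cells: the proteasome cuts proteins, the TAP transporter carries the peptides into the endoplasmic reticulum, and the loading complex places them on a heavy chain paired with beta-2 microglobulin. Class II molecules show peptides from the endosome to CD4 T cells, with the invariant chain filling the groove until cathepsins and H2-DM free it. Class I is found on nearly all nucleated cells, whereas class II is known mainly from B cells, dendritic cells and macrophages, and neutrophils are known to gain it after stimulation.

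The label of each population was read against markers. Of 10 neutrophil markers, 9 were higher in MAC1+ than in MAC1- myeloblasts and 10 were higher in neutrophils than in MAC1- myeloblasts. Of all genes 6.31% and 22.6% were higher in these comparisons. Kit stood at 2998 to 3470 in both myeloblast populations and at 94.9, 295 and 331 in neutrophil arrays 1, 2 and 3. Median intensities of the arrays ran from 39.1 to 61.8, so a probe set at or below that range is called dim here. The upper end, 61.8, came from neutrophil array 1 alone, and the other arrays ran from 39.1 to 45.4. Neutrophil array 1 stood apart: on the second principal component (9.42% of the variance) it scored -64.5, against 23.1 and 37.3 for the other two. Mpo, a primary granule enzyme of early precursors, was at 7132 in that array and at 1712 and 778 in the others. Neutrophil differences of member and list genes were therefore also tested without it, and the members and presentation list genes whose call changed, or whose called difference moved by over 1.5 times, are named below. Without it 4100 of all genes were higher and 5726 lower in neutrophils than in MAC1+ myeloblasts, against 3591 and 5163 with it.

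The 3 start-site windows below show the letters of 3 kinds of start: the window that Tap1 shares with Psmb9, that of the constant class I chain, and that of a class II chain. Each holds the 225 bases before the start, from RefSeq for GRCm38.p6, 5′ to 3′ on the gene's strand. Capitals mark matches on either strand to CCAAT, GAAANNGAA (an interferon-response-like motif), TTCNNNGAA (a STAT-like motif), GGGCGG (a GC box), TGACGTCA (a cyclic AMP element) and CTGATTGG (a Y box, which contains the CCAAT letters).
Tap1, chr17:34187331-34187555, plus strand: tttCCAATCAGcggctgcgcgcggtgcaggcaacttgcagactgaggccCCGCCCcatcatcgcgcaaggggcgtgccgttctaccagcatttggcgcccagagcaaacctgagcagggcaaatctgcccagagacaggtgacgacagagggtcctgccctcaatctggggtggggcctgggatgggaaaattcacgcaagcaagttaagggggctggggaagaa
B2m, chr2:122147462-122147686, plus strand: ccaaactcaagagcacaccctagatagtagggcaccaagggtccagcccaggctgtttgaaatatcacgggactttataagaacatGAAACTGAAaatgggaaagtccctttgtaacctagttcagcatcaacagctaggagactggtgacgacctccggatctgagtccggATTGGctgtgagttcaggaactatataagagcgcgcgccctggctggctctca
H2-Aa, chr17:34287824-34288048, minus strand: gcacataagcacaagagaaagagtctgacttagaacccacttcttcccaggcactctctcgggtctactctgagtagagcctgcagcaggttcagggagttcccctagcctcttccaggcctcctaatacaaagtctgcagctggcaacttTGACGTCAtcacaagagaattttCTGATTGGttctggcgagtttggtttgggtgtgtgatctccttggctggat

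The Tap1 window is also the window of Psmb9, which starts at its other end on the minus strand. Windows were at hand for 7 of the 10 genes. Among 32851 windows of this length, 31.6% held CCAAT, 31.9% the GC box, 6.33% GAAANNGAA, 6.23% TTCNNNGAA, 3.69% the Y box and 1.52% the cyclic AMP element. The H2-Aa window held the cyclic AMP element 74 to 67 bases and the Y box 51 to 44 bases before the start, a pairing of elements for which class II promoters are known. In the B2m window GAAACTGAA lay 139 to 131 bases before the start. TTCCCAGAA was found in the Psmb8 window, 97 to 89 bases before its start, and the Psmb10 window held no match to these letters. A match describes letters and shows no binding. On chromosome 17 the coding genes Psmb9, Tap1, Psmb8 and Tap2 follow each other in this order, with H2-Ob, H2-Ab1 and H2-Aa next.

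Across the populations the members split rather than moving as a block. In neutrophils Cd74 and the transporter genes Tap1 and Tap2 were higher than in either myeloblast population, Psmb10 was lower, and B2m and Tapbp did not pass the test. Psmb8 was already lower in MAC1+ than in MAC1- myeloblasts. The class II chain genes H2-Aa and H2-Ab1 read at most 127 in any array. Differences are log2(intensity + 16) ± standard error from limma, with p adjusted by Benjamini-Hochberg over 18193 genes, and a gene was called at an adjusted p under 0.05. Folds are on the same scale and understate the change of dim genes. In all sorted-cell comparisons here, fewer cells of a type and less RNA per cell cannot be told apart.

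**Figure D1:**
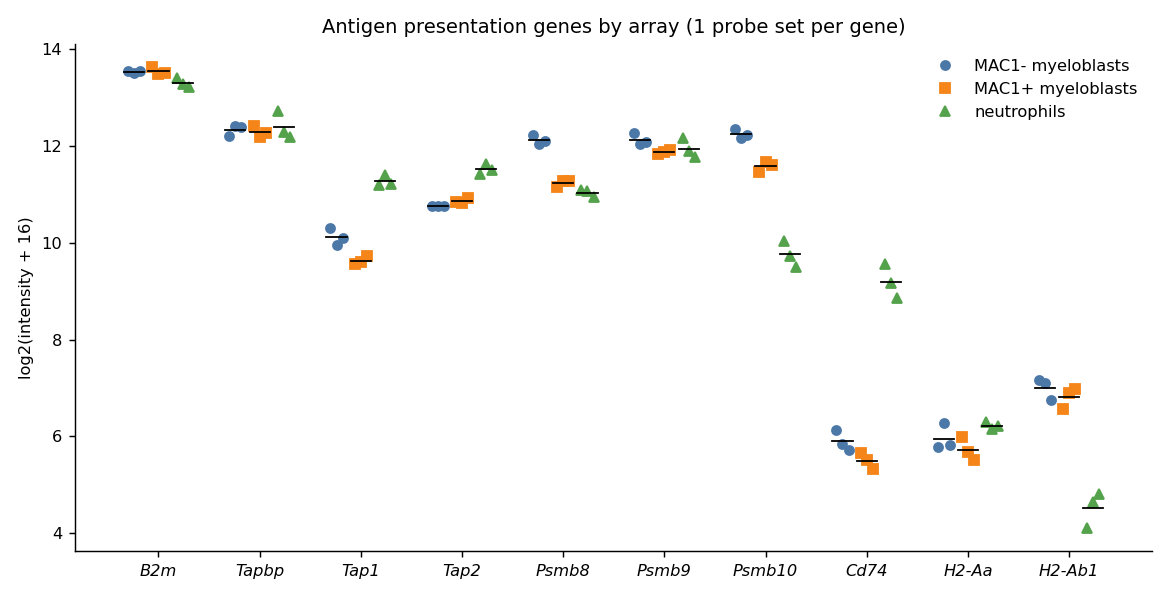
Level of each of the 10 genes on every array, as log2(intensity + 16), for the probe set with the highest mean, with MAC1- myeloblasts as circles, MAC1+ myeloblasts as squares, neutrophils as triangles and the mean of 3 arrays as a line. Cd74 and Tap1 are highest in all 3 neutrophil arrays, Psmb10 and H2-Ab1 lowest, and B2m varies little; levels of different genes come from different probes and are not comparable.

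Between MAC1+ and MAC1- myeloblasts 2 of the 10 members were lower and 0 were higher, where 5.51% of all genes were lower and 6.31% higher. Between neutrophils and MAC1+ myeloblasts 3 were higher and 2 lower, against 19.7% and 28.4% of all genes. Between neutrophils and MAC1- myeloblasts 3 were higher and 3 lower, against 22.6% and 30% of all genes. The median difference of the members was -0.24, 0.09 and -0.06 in these comparisons, and that of all genes -0.01, 0.05 and 0.05. The comparisons share samples in pairs, so they are not separate observations. In the neutrophil comparisons the members' counts lie near the shares of all genes, and between the myeloblasts the 2 lower genes are Psmb8 and Psmb10. Over the 21 member probe sets, 2 were called between the myeloblasts, 5 for neutrophils against MAC1+ and 7 for neutrophils against MAC1- myeloblasts, where 6.79%, 40.8% and 45.1% of all probe sets were called.

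**Figure D2:**
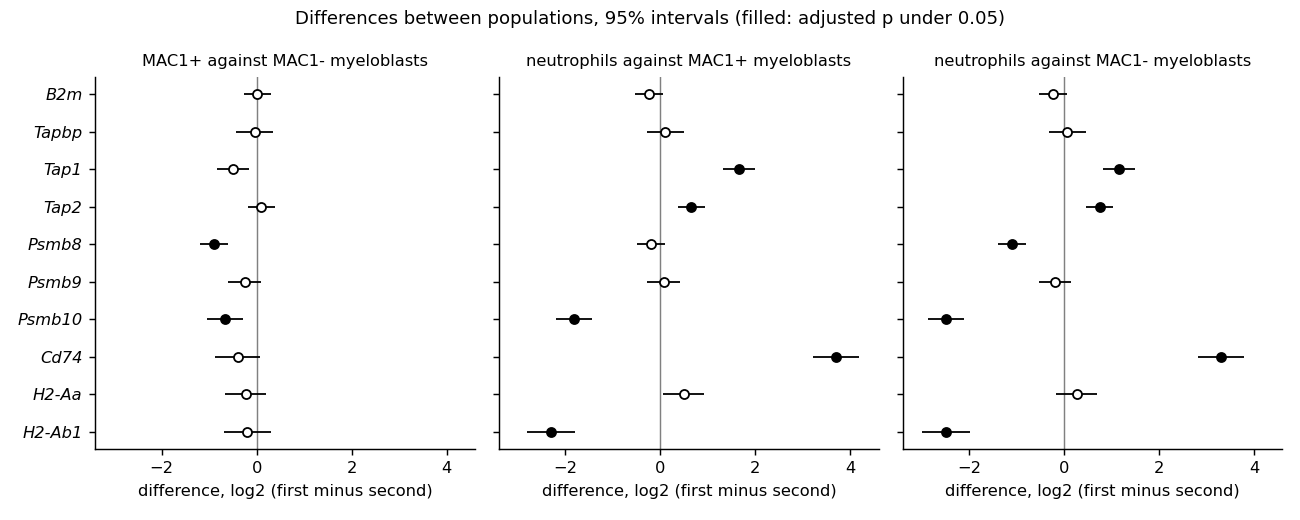
Difference of each gene between populations on the log2(intensity + 16) scale (x axis, first minus second population), with 95% confidence intervals from limma over 3 arrays per population; filled points passed an adjusted p under 0.05. Cd74 lies at 3.70 and Psmb10 at -1.82 for neutrophils against MAC1+ myeloblasts, whereas only Psmb8 and Psmb10 are filled for MAC1+ against MAC1- myeloblasts.

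B2m encodes beta-2 microglobulin, the invariant light chain of all class I molecules. Its brighter probe set read 11927, 11532 and 11986 in MAC1- myeloblasts, 12648, 11507 and 11616 in MAC1+ myeloblasts, and 10789, 9921 and 9554 in neutrophils. The 3 neutrophil arrays were the lowest, below every myeloblast array. The differences did not pass the test: 0.01 ± 0.13 for MAC1+ against MAC1- (95% interval -0.28 to 0.30, limma adjusted p = 0.987) and -0.24 ± 0.13 for neutrophils against MAC1+ (-0.53 to 0.05, adjusted p = 0.150). Neutrophils against MAC1- myeloblasts gave -0.23 ± 0.13 (-0.52 to 0.06). Without neutrophil array 1 both neutrophil differences passed, at -0.29 against MAC1+ and -0.28 against MAC1- myeloblasts (limma adjusted p = 0.0444 and 0.0486). The second B2m probe set ran from 8020 to 9811 in neutrophils and from 9694 to 10605 in myeloblasts, so the groups overlapped, and it passed in no comparison.

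The heavy chains that pair with B2m belong to a family of near-identical copies, and their probe sets can bind several members. Of 25 class I heavy chain and class I-like genes listed, 14 had a probe set naming them alone. For neutrophils against MAC1+ myeloblasts 7 of the 14 were higher and 2 lower, with a median of 0.65, where 19.7% of all genes were higher and 28.4% lower. For MAC1+ against MAC1- myeloblasts 0 were higher and 2 lower, where the shares of all genes were 6.31% and 5.51%. The probe set kept for H2-K1, a classical heavy chain, read 10668 to 11700 in neutrophils and 6795 to 8427 in myeloblasts (difference from MAC1+ 0.53 ± 0.15, limma adjusted p = 0.0143). After centring each array on its median this call was lost (0.33, adjusted p = 0.115). The other two bright H2-K1 probe sets ran the other way. One read 6045 to 7207 in neutrophils and 8298 to 9932 in myeloblasts, and the other 3084 to 3449 and 4518 to 5544 (-0.48 and -0.57 against MAC1+, limma adjusted p = 0.0312 and 0.0106 over all probe sets). The direction of H2-K1 is therefore uncertain. For H2-D1, the other classical heavy chain of this strain, the brightest probe set did not pass against MAC1+ myeloblasts (0.28 ± 0.14, limma adjusted p = 0.136), but passed after quantile normalization (0.66, adjusted p = 0.00335). Another bright H2-D1 probe set read 6338 to 8320 in neutrophils and 4085 to 5059 in myeloblasts and passed over all probe sets (0.61, limma adjusted p = 0.0176). A weaker one, singled out after its values were seen, read 2229 to 3284 in neutrophils and 534 to 568 in MAC1+ myeloblasts. It also passed over all probe sets (2.36, limma adjusted p = 1.01e-05).

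H2-Q10, a class I gene known for its secreted product, showed the largest difference of the list. Its probe set read 1.7 to 6.3 in MAC1- myeloblasts, 12.6 to 17.4 in MAC1+ myeloblasts, and 7515, 6205 and 5169 in neutrophils. All myeloblast arrays were dim and all neutrophil arrays bright (7.67 ± 0.18 above MAC1+, limma adjusted p = 3.70e-08). Whether these probes also bind other heavy chain transcripts was not tested. H2-T24, of the same list, read 7.1 to 36.6 in myeloblasts and 180, 230 and 332 in neutrophils (2.35 ± 0.28 above MAC1+, limma adjusted p = 9.89e-05). Mr1, which presents vitamin metabolites to MAIT cells, was 1.64 ± 0.19 higher in neutrophils than in MAC1+ myeloblasts, whereas Cd1d1, which presents lipids to NKT cells, fell by 2.53 ± 0.30 and Hfe, an iron regulator with a class I fold, fell by 4.33 ± 0.32. H2-M3, which presents formylated bacterial peptides, was the class I-like gene that dropped between the myeloblasts, from 1308 to 1646 down to 449 to 461 (-1.66 ± 0.15, limma adjusted p = 0.000144), together with the Fc receptor gene Fcgrt (-1.14 ± 0.17).

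Tap1 and Tap2 encode the subunits of the peptide transporter. Tap1 read 1256, 969 and 1088 in MAC1- myeloblasts, 735, 756 and 828 in MAC1+ myeloblasts, and 2317, 2691 and 2372 in neutrophils. The 3 populations did not overlap, with MAC1+ myeloblasts lowest and neutrophils highest. Neutrophils were 3.14-fold above MAC1+ myeloblasts (difference 1.65 ± 0.15, limma adjusted p = 1.56e-05) and 2.22-fold above MAC1- myeloblasts (1.15 ± 0.15, adjusted p = 0.000145). The step between the myeloblasts, -0.50 ± 0.15, missed the threshold (limma adjusted p = 0.0662) and passed when neutrophil array 1 was left out of the model (adjusted p = 0.0234). The other three Tap1 probe sets were dim, at or below 47.6 in every array, and passed in no comparison.

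Tap2 read 1726, 1722 and 1726 in MAC1- myeloblasts, 1812, 1790 and 1934 in MAC1+ myeloblasts, and 2736, 3139 and 2868 in neutrophils. The myeloblast populations lay close together and the neutrophils above both. The rise was 1.57-fold against MAC1+ myeloblasts (0.65 ± 0.13, limma adjusted p = 0.00215) and 1.68-fold against MAC1- myeloblasts (0.75 ± 0.13, adjusted p = 0.000800). After centring of each array, which moved the median difference of all genes from 0.05 to -0.15, the former was 0.46 and no longer passed (adjusted p = 0.0541).

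Tapbp encodes tapasin, which bridges the transporter and the empty class I molecule. It read 4673, 5402 and 5316 in MAC1- myeloblasts, 5414, 4638 and 4939 in MAC1+ myeloblasts, and 6716, 4970 and 4662 in neutrophils. The populations overlapped, and the highest value came from neutrophil array 1. No difference passed (0.11 ± 0.17 for neutrophils against MAC1+, 95% interval -0.28 to 0.50). The second probe set of Tapbp ran from 200 to 239 in myeloblasts and from 241 to 375 in neutrophils, without overlap, and did not pass over all probe sets (limma adjusted p = 0.0677 against MAC1+).

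The rest of the loading machinery fell in neutrophils. Of 14 measured loading partners, 13 were lower in neutrophils than in MAC1+ myeloblasts and 0 higher, with a median of -1.75 beside 0.05 for all genes, of which 28.4% were lower and 19.7% higher. Calr and Canx, the lectin chaperones calreticulin and calnexin, fell by 2.05 ± 0.18 and 2.47 ± 0.19, and Pdia3, the thiol oxidoreductase of the loading complex, fell by 2.49 ± 0.22. Erap1, the aminopeptidase that trims peptides in the endoplasmic reticulum, read 1086 to 1244 in MAC1+ myeloblasts and 31.9, 219 and 139 in neutrophils (-3.30 ± 0.48, limma adjusted p = 0.000362), and the difference was -2.63 without neutrophil array 1 (against MAC1- myeloblasts -3.75 with it and -3.09 without). Thop1, a cytosolic peptidase, fell by 3.54 ± 0.22 to between 12.8 and 31.8. Npepps, another cytosolic aminopeptidase, was the exception: it did not differ beyond the test between neutrophils and MAC1+ myeloblasts (0.04 ± 0.19) and was 1.14 ± 0.19 higher in MAC1+ than in MAC1- myeloblasts. Many of these partners also serve general protein folding.

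Psmb8, Psmb9 and Psmb10 are the catalytic subunits that turn the standard proteasome into the immunoproteasome. Psmb8 read 4780, 4221 and 4389 in MAC1- myeloblasts, 2272, 2451 and 2459 in MAC1+ myeloblasts, and 2177, 2118 and 1966 in neutrophils. MAC1- myeloblasts stood above both others in all 3 arrays. Psmb8 fell by 0.89 ± 0.13 between the myeloblasts (limma adjusted p = 0.00197) and was 2.13-fold lower in neutrophils than in MAC1- myeloblasts (-1.09 ± 0.13, adjusted p = 7.77e-05). From MAC1+ myeloblasts to neutrophils the difference did not pass (-0.20 ± 0.13). The second, weaker probe set of Psmb8 gave the same order, with 69.9 to 83.8 in MAC1- myeloblasts against 31.3 to 38.1 and 23.8 to 40.6.

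Psmb9 read 4923, 4175 and 4302 in MAC1- myeloblasts, 3615, 3715 and 3863 in MAC1+ myeloblasts, and 4574, 3771 and 3467 in neutrophils. Neutrophils overlapped both other populations, and no difference passed (-0.26 ± 0.15, 0.07 ± 0.15 and -0.19 ± 0.15). It shares its start-site window with Tap1, which rose in neutrophils. Of the pair's arrays, neutrophil array 1 was the highest neutrophil value for Psmb9 and the lowest for Tap1.

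Psmb10 read 5194, 4567 and 4757 in MAC1- myeloblasts, 2790, 3230 and 3110 in MAC1+ myeloblasts, and 1033, 837 and 711 in neutrophils. It stepped down from population to population without overlap. Neutrophils were 3.52-fold below MAC1+ myeloblasts (-1.82 ± 0.17, limma adjusted p = 1.68e-05) and 5.60-fold below MAC1- myeloblasts (-2.48 ± 0.17, adjusted p = 1.71e-06). The first step, -0.67 ± 0.17, passed (limma adjusted p = 0.0318) but was lost when any 1 of the 6 myeloblast arrays was left out (adjusted p from 0.0810 to 0.124). When neutrophil array 1 was left out of the model it passed (limma adjusted p = 0.00404).

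The standard subunits that they replace, Psmb5, Psmb6 and Psmb7, did not pass the test between the myeloblast populations (0.06 ± 0.14, -0.08 ± 0.20 and -0.20 ± 0.26). They fell in neutrophils by 1.12 ± 0.14, 1.02 ± 0.20 and 1.55 ± 0.26 against MAC1+ myeloblasts. Of 8 measured standard subunits, activators and assembly factors, 7 were lower in neutrophils than in MAC1+ myeloblasts and 8 lower than in MAC1- myeloblasts, where 28.4% and 30% of all genes were lower. Psme1, a subunit of the interferon-inducible activator, fell by 0.58 ± 0.15, and Psmf1, a proteasome inhibitor, by 2.01 ± 0.27.

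The log2 difference between each inducible subunit and its standard counterpart was followed array by array, and only its change was read. For Psmb8 and Psmb5 it dropped by 0.95 from MAC1- to MAC1+ myeloblasts and was higher by 0.92 in neutrophils than in MAC1+ myeloblasts, with no overlap of arrays at either step. Neutrophils and MAC1- myeloblasts overlapped (-0.03, exact two-sided permutation p = 0.7). For Psmb9 and Psmb6 the difference was 1.09 higher in neutrophils than in MAC1+ myeloblasts and 0.91 higher than in MAC1- myeloblasts, again without overlap. From MAC1- to MAC1+ myeloblasts it changed by -0.17, and that of Psmb10 and Psmb7 by -0.47, also without overlap. For Psmb10 and Psmb7 the neutrophil arrays were spread from -1.15 to 0.43, with array 1 alone above 0, and overlapped both myeloblast populations. Each test of 3 arrays against 3 cannot go below an exact p of 0.1, the value found for each of the steps without overlap.

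**Figure D3:**
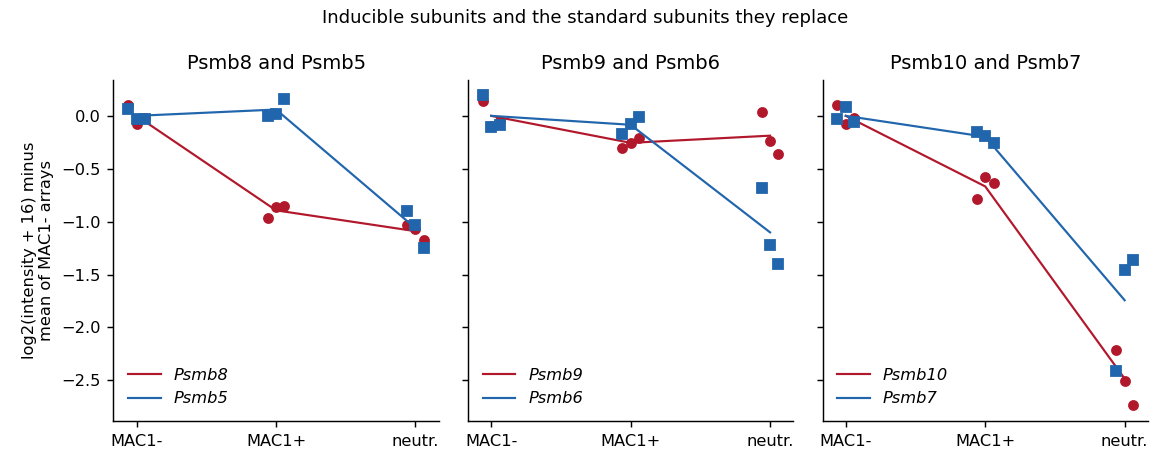
Inducible subunits (circles) and the standard subunits they replace (squares) by array, as log2(intensity + 16) minus the mean of the 3 MAC1- arrays, with lines through the population means. Psmb8 drops in MAC1+ myeloblasts while Psmb5 does not, both are low in neutrophils, Psmb9 stays nearer 0 than Psmb6 in neutrophils, and neutrophil array 1 is the lowest for Psmb7.

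Cd74 encodes the invariant chain of class II molecules, which is also a surface receptor for the cytokine MIF. It read 54, 41.6 and 36.4 in MAC1- myeloblasts, 34.5, 29.6 and 23.9 in MAC1+ myeloblasts, and 745, 557 and 447 in neutrophils. The myeloblast arrays were dim and every neutrophil array was far above them. Neutrophils were 13-fold above MAC1+ myeloblasts (3.70 ± 0.21, limma adjusted p = 8.67e-07) and 9.85-fold above MAC1- myeloblasts (3.30 ± 0.21, adjusted p = 1.30e-06). Without neutrophil array 1 the differences were 3.51 and 3.11. Of 13 monocyte and macrophage markers 5 were then higher than in MAC1+ myeloblasts, C1qa and C1qc being added, and 2 lower. Of all 18193 genes 4100 were then higher and 5726 lower. The step between the myeloblasts did not pass (-0.40 ± 0.21).

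Cells known for high Cd74 were looked for by their markers. Of 12 B lineage markers 11 were measured. Their summed intensity ran from 1162 to 3060 in neutrophils, from 3587 to 13255 in MAC1+ and from 9214 to 13532 in MAC1- myeloblasts. In neutrophils 0 were higher and 3 lower than in MAC1+ myeloblasts, where 19.7% of all genes were higher and 28.4% lower. The list's median difference was 0.15. Ebf1, an early B lineage factor, read 7051, 11104 and 11397 in MAC1- myeloblasts, 11772, 8838 and 1898 in MAC1+ myeloblasts, and 2112, 985 and 836 in neutrophils, a large term of each sum. Cd79b and Igll1, of the same list, read 551 to 747 and 615 to 675 in MAC1+ myeloblasts, and 59.2 to 79.2 and 44.6 to 153 in neutrophils. The B cell genes Cd79a and Ms4a1 read 187, 69.4 and 21.2, and 168, 14.4 and 23.3 in neutrophil arrays 1, 2 and 3, and Pax5 read 36 to 48.1. Array 1 was also the highest neutrophil array for weak probe sets of other lists, such as Zbtb46 (234, 61.8 and 36.6) and Siglech (142, 21.9 and 52.1). For others, such as C1qa (33.6, 88.6 and 76.3), it was the lowest. Of 14 dendritic cell markers 13 were measured, with sums from 1557 to 2010 in neutrophils, from 551 to 636 in MAC1+ and from 1051 to 1302 in MAC1- myeloblasts. Of these 2 were higher and 1 lower in neutrophils than in MAC1+ myeloblasts, beside the same shares of all genes. Itgax, the CD11c chain that neutrophils can also carry, read 13.9 to 36 in myeloblasts and 1126 to 1285 in neutrophils. It was by far the largest term of each neutrophil sum, so the higher sum does not describe the list. Bst2 ran the other way, at 571 to 740 in MAC1- and 169 to 256 in MAC1+ myeloblasts and 24.4 to 111 in neutrophils. Flt3 was at 1.1 to 1.6 and Xcr1 at 16.7 to 20.6 in neutrophils. Of 14 monocyte and macrophage markers 13 were measured, with sums from 13499 to 19998 in neutrophils, from 13037 to 14778 in MAC1+ and from 38459 to 40757 in MAC1- myeloblasts. Csf1r, Adgre1 and Cd68 were higher in neutrophils than in MAC1+ myeloblasts, F13a1, Mrc1 and Vcam1 were lower, and the other seven did not pass. These counts lie near the 19.7% and 28.4% of all genes. Csf1r read 8166 to 8797 in MAC1-, 485 to 715 in MAC1+ myeloblasts and 7112 to 12949 in neutrophils. From MAC1+ myeloblasts to neutrophils Cd68 went from 201 to 275 up to 1489 to 2279. Adgre1 went from 759 to 798 up to 1940 to 2456. Vcam1, an adhesion molecule, read 7552 to 8243 in MAC1+ myeloblasts and 271 to 485 in neutrophils. Csf1r was the largest term of each neutrophil sum and Vcam1 of each MAC1+ sum, so their likeness does not describe the list. C1qb, a complement gene of macrophages, read 657, 192 and 107 in neutrophils. The part of such cells in the Cd74 difference was not tested.

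H2-Aa and H2-Ab1 encode the alpha and beta chains of the class II molecule I-A. The brightest H2-Aa probe set read 39.0, 61.5 and 40.3 in MAC1- myeloblasts, 47.8, 35.2 and 29.7 in MAC1+ myeloblasts, and 62.9, 55.1 and 58.1 in neutrophils. Neutrophils lay above MAC1+ myeloblasts without overlap, but the difference did not pass (0.49 ± 0.19, limma adjusted p = 0.0577). It passed under 4 of the alternatives (limma adjusted p from 0.0253 to 0.0463). The other three H2-Aa probe sets stayed at or below 63.6 in every array and passed in no comparison. Every H2-Aa probe set has a suffix that marks it as able to bind several transcripts, so the gene could not be tested without such probe sets.

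The brightest H2-Ab1 probe set read 127, 122 and 91.5 in MAC1- myeloblasts, 78.2, 103 and 111 in MAC1+ myeloblasts, and 1.3, 9.0 and 11.9 in neutrophils. It was lower in every neutrophil array, 4.91-fold against MAC1+ myeloblasts (-2.30 ± 0.22, limma adjusted p = 2.46e-05), in the direction opposite to Cd74. The other two H2-Ab1 probe sets did not show this: they read 9.0 to 40.9 and 15.0 to 31.8 in neutrophils against 17.4 to 33.0 and 19.9 to 23.5 in MAC1+ myeloblasts. Without probe sets able to bind several transcripts, H2-Ab1 differed by 0.08 (limma adjusted p = 0.862). The fall of H2-Ab1 therefore rests on 1 of its 3 probe sets, whose suffix marks it as able to bind several transcripts.

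**Figure D4:**
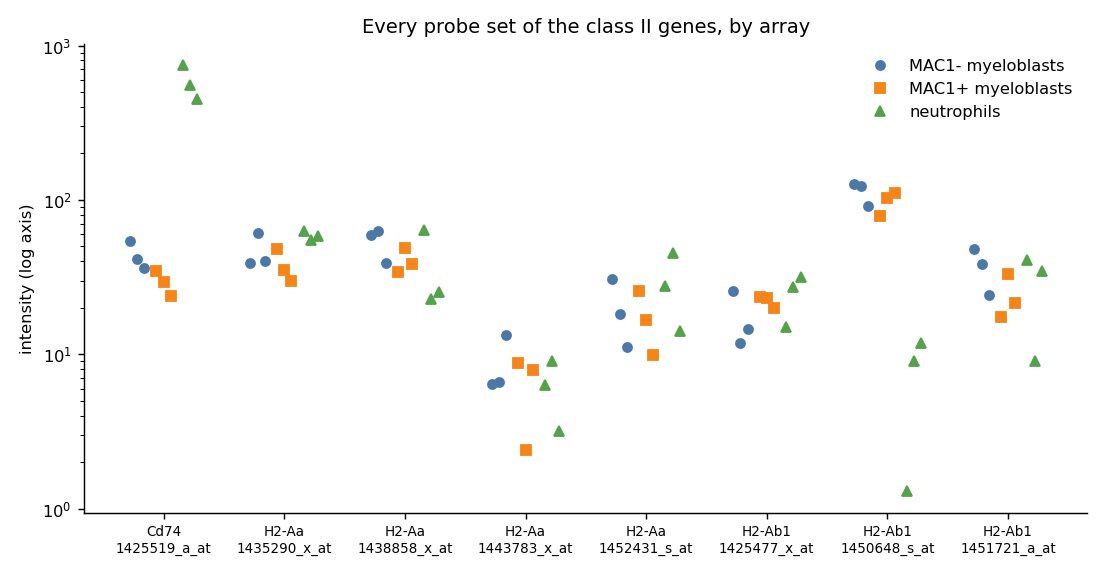
Intensity (log axis) of all 8 probe sets of Cd74, H2-Aa and H2-Ab1 on each array, with MAC1- myeloblasts as circles, MAC1+ myeloblasts as squares and neutrophils as triangles. Cd74 alone rises to 447 to 745 in neutrophils, 1 H2-Ab1 probe set falls to 1.3 to 11.9, and the other six stay at or below 63.6 in every array.

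Several class II loading genes fell between the myeloblasts. Of 16 measured class II chains and loading genes outside the members, 6 were lower and 1 higher in MAC1+ than in MAC1- myeloblasts, with a median of -0.34, where 5.51% of all genes were lower and 6.31% higher. For neutrophils against MAC1+ myeloblasts 7 were higher and 3 lower (all genes 19.7% and 28.4%). Against MAC1- myeloblasts 3 were higher and 6 lower (all genes 22.6% and 30%), and without neutrophil array 1 Lgmn and Marchf8 passed as well (0.82 and 0.51). H2-DMa, a chain of the H2-DM exchange factor, read 2892, 1997 and 2392 in MAC1- myeloblasts, 381, 547 and 547 in MAC1+ myeloblasts, and 164, 181 and 141 in neutrophils. This probe set stepped down from population to population without overlap (-2.27 ± 0.20 and -1.50 ± 0.20, limma adjusted p = 0.000117 and 0.000233). The weaker H2-DMa probe set showed the first step alone. It read 120 to 151 in MAC1- myeloblasts, 26 to 40.5 in MAC1+ myeloblasts and 27 to 41.6 in neutrophils. H2-Oa and H2-Ob, the chains of H2-DO that restrains H2-DM, fell by 1.36 ± 0.25 and 1.48 ± 0.20 between the myeloblasts. Both are weak: H2-Oa read 114 to 159 in MAC1- and 32.1 to 53 in MAC1+ myeloblasts. H2-Ob read 40.9 to 61.9 and 4.5 to 15.4, in or near the dim range throughout. Ctss, the cathepsin that makes the last cut in the invariant chain, read 6918 to 7951, then 223 to 315, then 3365 to 4229: it fell by 4.76 ± 0.17 and was 3.83 ± 0.17 higher again in neutrophils than in MAC1+ myeloblasts. Ifi30, the endosomal thiol reductase GILT, had the same course (-2.28 ± 0.18 and 1.65 ± 0.18). Beside these steps, 7 of 13 monocyte and macrophage markers were lower in MAC1+ than in MAC1- myeloblasts and 1 higher; the part of monocyte-lineage cells in them was not tested.

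Marchf1, the ubiquitin ligase that removes class II and Cd86 from the surface, read 29.2 to 54.7 in myeloblasts and 1052, 1431 and 1151 in neutrophils (4.50 ± 0.17 above MAC1+, limma adjusted p = 1.18e-07). The bright probe set of Cd82, also on the class II list, read 622 to 859, then 1235 to 1522, then 3832 to 5388. It was higher at both steps (0.91 and 1.71, limma adjusted p = 0.0249 and 9.82e-05 over all probe sets). The I-E genes H2-Ea and H2-Eb1 were at or below 37.2 in all arrays for the probe sets kept, and C57BL/6 mice are known to lack a working H2-Ea. Among 7 costimulation genes, 2 were higher in neutrophils than in MAC1+ myeloblasts and 0 lower, beside 19.7% and 28.4% of all genes: Cd86, a ligand of CD28, read 5.6 to 9.4 in MAC1+ myeloblasts and 976, 983 and 1118 in neutrophils (5.45 ± 0.14), and Icosl, the ligand of ICOS, rose by 3.32 ± 0.21. Cd80, Cd40, Cd83, Cd274 and Pdcd1lg2 did not pass (0.41 ± 0.17, 0.15 ± 0.19, 0.18 ± 0.25, 0.81 ± 0.46 and 0.24 ± 0.31). Without neutrophil array 1 Cd83, Cd274 and Pdcd1lg2 passed as higher than in MAC1+ myeloblasts (0.47, 1.35 and 0.60, limma adjusted p = 0.0344, 0.00645 and 0.0354) and than in MAC1- myeloblasts (0.51, 1.55 and 0.75). All were weak. In neutrophil arrays 2 and 3 they read 49.2 and 41.6, 173 and 243, and 82.6 and 103. In MAC1+ myeloblasts they read 20.5 to 33.7, 41.3 to 101 and 38.7 to 66.7. Cd83 was dim in every array.

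Of 22 measured regulators of these genes, 12 were higher and 3 lower in neutrophils than in MAC1+ myeloblasts, with a median of 0.60, where 19.7% of all genes were higher and 28.4% lower. Between the myeloblasts 4 were higher and 4 lower, where the shares were 6.31% and 5.51%. Without neutrophil array 1 Nfyb and Nfyc, subunits of the CCAAT-binding factor NF-Y, passed as lower than in MAC1+ myeloblasts (-0.71 and -0.50) and than in MAC1- myeloblasts (-0.33 and -0.38), and Ifnar2 no longer passed against MAC1- myeloblasts (0.37, limma adjusted p = 0.0696). Ciita, the master coactivator of class II genes, read 25.1 to 62.9 and passed in no comparison (0.36 ± 0.20 for neutrophils against MAC1+). Nlrc5, its class I counterpart, read 180 to 219, then 46 to 80.3, then 1099, 446 and 375, so that MAC1+ myeloblasts were lowest and neutrophils highest, as for Tap1 (-1.48 ± 0.36 and 2.95 ± 0.36, limma adjusted p = 0.0298 and 0.000123). Irf9, part of the interferon-response complex ISGF3, rose by 3.11 ± 0.14 in neutrophils, Ifngr2, a chain of the interferon gamma receptor, by 2.94 ± 0.18, and Irf2 by 1.94 ± 0.20. Irf1, an interferon-inducible activator of Tap1 and Psmb9, read 1632 to 1932 in MAC1+ myeloblasts and 4197, 18952 and 4618 in neutrophils, with array 2 far above the others (1.98 ± 0.49, limma adjusted p = 0.00858). Rfx5, the DNA-binding subunit of the RFX complex on class II promoters, fell by 2.39 ± 0.22 while its partner Rfxank was 1.15 ± 0.20 higher. Irf8, which drives monocyte and dendritic fate, fell between the myeloblasts, from 12624 to 13516 down to 432 to 1047 (-4.35 ± 0.34).

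**Figure D5:**
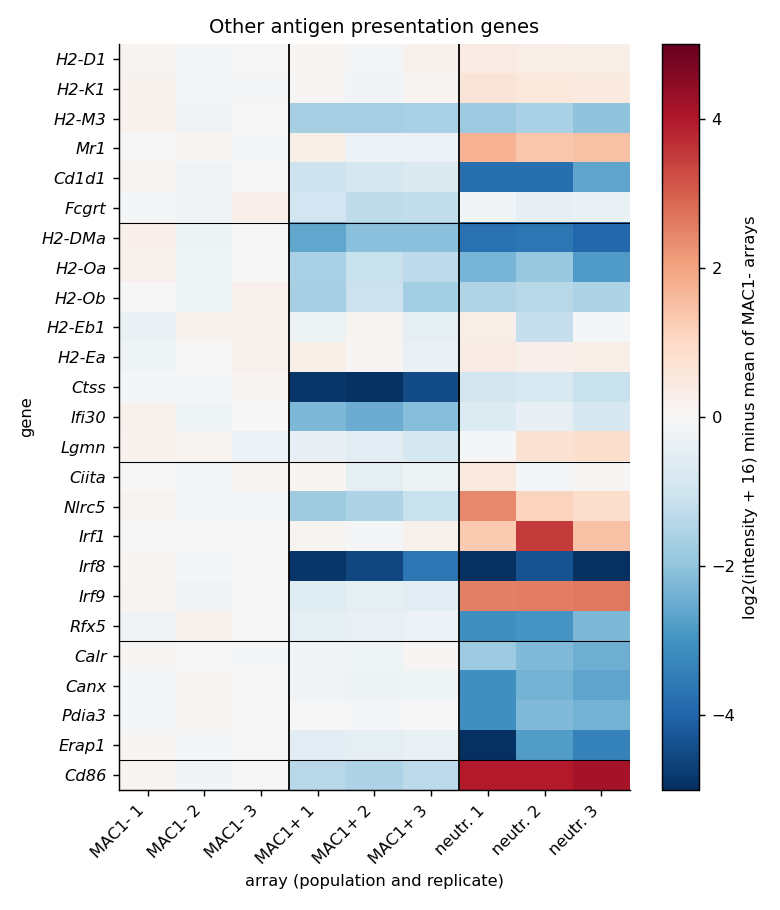
Colour map of 25 other antigen presentation genes on the 9 arrays, as log2(intensity + 16) minus the mean of the 3 MAC1- arrays, with a colour scale from -5 to 5 (red higher, blue lower); lines separate populations and gene groups. The chaperone genes are blue in neutrophils alone, Ctss, Ifi30 and Nlrc5 are lowest in MAC1+ myeloblasts, and Cd86 and Irf9 are red in neutrophils.

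Likeness of pattern was described over the 9 arrays, which fall into 3 populations, so high values arise easily and no p is given. With the mean standardised level of Tap1, Psmb8 and Psmb9, the genes most alike were Tmsb10 (r = 0.959), Utp14a (0.954), Sdhb (0.947), Unc93b1 (0.925) and Vdr (0.921). With that of Cd74, H2-Aa and H2-Ab1 they were Pi4k2a (0.899), Rasl12 (0.868), Fam71d (0.863), Plcb3 (0.857) and Nampt (0.848). These averages mix genes that ran apart: over the 9 arrays Cd74 and H2-Ab1 had r = -0.97, and Tap1 and Psmb8 r = -0.36. Cd74 and Tap1 had r = 0.96 and Tap2 and Psmb10 r = -0.97.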

How the data were processed

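The authors deposited intensity values on a linear scale for 45101 probe sets on 9 arrays. Per the labels' protocols, RNA was amplified in 2 cycles and labelled with biotin, which can favour transcript ends. Summarisation, background correction and scaling are not given in the sources used here, and no detection calls were used. Gene names came from the platform annotation. The probe set with the highest mean over all 9 arrays stood for a gene, and no filter on low values was set: all 10 members lay above the 40th percentile of gene means.

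Tests used limma 3.58.1 (R 4.3.3) on log2(intensity + 16), an offset that understates the change of dim genes, in 1 model of the 3 populations. Counterpart subunits were compared with an exact permutation test (scipy 1.17.1). The fit was tested on simulated data. The number of arrays limits the precision.

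The members and lists were chosen with earlier results of these data known. Every member is named. From presentation lists of more than 10 genes some of the called genes with the largest differences per comparison are named, and others by their role. Of the cell type markers only some are named, whether called or not. Most alike are the 5 genes with the highest correlation among those whose mean lay above the median of gene means. The alternatives tried were quantile normalization, centring, a replicate block, offsets of 1 and 64, no dim genes, other choices of probe sets, another variance prior, array weights, fits of only 2 populations, and each array left out. Same-numbered arrays did not deviate together (correlations from -0.31 to 0.13), so no effect shared by number was seen. With so few arrays per population, these correlations cannot exclude that same-numbered samples were paired. Genes whose probe sets name several genes, such as H2-DMb1 and Psme2, were not analysed here.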

Additional observations from a re-analysis of the deposited data

How the results depend on the processing

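The count of members called between MAC1+ and MAC1- myeloblasts, 2 as reported, was 1 with the replicate block, with an offset of 1 and with every probe set tested on its own, since Psmb10 was lost (limma adjusted p = 0.0761, 0.0592 and 0.0608), and 1 to 3 when 1 array was left out. It was 3 under 6 other settings, which added Tap1 (limma adjusted p from 0.00529 to 0.0403). The replicate block changed no other count of members. Counts ran from 4 to 7 for neutrophils against MAC1+ and from 5 to 8 for neutrophils against MAC1- myeloblasts. H2-Ab1 reversed to 0.079 against MAC1+ myeloblasts and moved to -0.32 against MAC1- myeloblasts (limma adjusted p = 0.448) without x and s probe sets, since another probe set then stands for the gene. B2m passed as lower in neutrophils than in MAC1+ myeloblasts under 4 settings and without neutrophil array 1 (limma adjusted p from 0.0192 to 0.0463), and than in MAC1- myeloblasts under 3 and without it (from 0.0112 to 0.0486). H2-Aa passed as higher than in MAC1+ myeloblasts without dim genes, with array weights, without MAC1- array 2 and without MAC1+ array 1 (0.0343, 0.0253, 0.0463 and 0.0354). Of the member differences under all alternatives 594 kept direction and side of the threshold, 21 newly passed, 11 no longer passed and 1 reversed. Of the list gene differences under quantile normalization and centring 462 kept both, 11 newly passed, 13 no longer passed and 0 reversed. Leaving neutrophil array 1 out for the list genes was chosen after seeing the data: 61 presentation list genes were then called against MAC1+ and 64 against MAC1- myeloblasts, beside 56 and 58. The presentation lists held 14, 14, 8, 16, 22 and 7 measured genes. Calls over all 18193 genes rose too. Against MAC1+ myeloblasts 4100 were then higher and 5726 lower, beside 3591 and 5163. Against MAC1- myeloblasts the counts were 4557 and 6045, beside 4109 and 5461. Over all genes, 1148 were higher and 1003 lower in MAC1+ than in MAC1- myeloblasts, 2191 and 1987 without neutrophil array 1, and 710 to 816 and 599 to 723 without 1 myeloblast array.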

Other observations

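H2-D1 had several probe sets of its own beside the brightest. The one of them without an x or s suffix that was bright read 677 to 843 in MAC1- myeloblasts, 534 to 568 in MAC1+ myeloblasts, and 2229, 3284 and 3259 in neutrophils. Its order, with MAC1+ myeloblasts lowest and neutrophils highest, was that of Tap1 and Nlrc5. It was singled out after its values were seen.

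Taken alone, the patterns of Cd74 and Tap1 were also set against the genes whose mean lay above the median of gene means. This choice was made after their values were seen. Over the 9 arrays Cd74 was most like Resf1 (r = 0.997), Vipas39 (0.996), Plek (0.996), Tnfaip8l2 (0.995) and S100a6 (0.995). Tap1 was most like Slc25a45 (0.994), Vmp1 (0.993), Rnf13 (0.992), Trp53i13 (0.991) and Elac1 (0.991).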
